A study of Mus musculus with 4 samples.

Results

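ADAMTS metalloproteinases were followed in whole kidneys of mouse embryos at E14.5. The set comprised 10 genes, Adamts1, Adamts2, Adamts4, Adamts5, Adamts6, Adamts9, Adamts10, Adamts12, Adamts15 and Adamts16, of 18194 genes that the platform annotation pairs singly with probe sets. Every probe set assigned to 1 of these genes alone was taken, which gave 19 probe sets for 9 genes; Adamts2 had none in the annotation used and was not analysed here. The family was picked because its members differed in opposite directions between the genotypes on these same arrays. The members' own differences are therefore a description, and no p-value is given for them. There were 4 arrays. The 2 wild-type arrays each held a pool of 2 kidneys, with strain given as CD-1, and the 2 mutant arrays each held a pool of 12 kidneys from Wnt4 null embryos (allele Wnt4tm1Amc), with strain given as 129. Genotype, stated strain and pool size cannot be told apart, all 4 pools were of whole excised organs, and sex was recorded as unknown. Whether the pools came from separate litters is not in the labels. P-values therefore measure only the spread between these samples, which may be technical.

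ADAMTS proteins are secreted zinc-dependent proteases that carry thrombospondin type 1 repeats. They are made as inactive proenzymes, are commonly cut by furin-like proprotein convertases, and then act in the extracellular matrix. One branch cleaves versican and aggrecan, another trims the amino-terminal propeptides of fibrillar procollagens, and others bind or cut fibrillin microfibrils. In the urinary tract the family is known above all for Adamts1, whose loss in mice gives malformed kidneys and ureters. Wnt4 is a secreted signal that kidney mesenchyme needs to form the renal vesicle, from which the nephron grows, so the comparison asks which transcripts differ when that step is missing.

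The targeted gene, Wnt4, read 1885 and 1769.9 in wild-type and 406 and 272 in mutant kidneys (limma adjusted p = 0.000196), and whether its probe set lies outside the disrupted exons was not analysed here. Kidney markers were present in both groups. Six2, of the nephron progenitors, read 3759.5 and 2896 in wild-type and 3235 and 2670.2 in mutant kidneys. A low-signal filter left out the lowest 40% of probe sets by mean log2 value, and 27022 were tested.

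Promoter sequence from RefSeq (GRCm38.p6) was at hand for 4 of the 10 genes. The promoters of 3 measured genes are shown, because they set Adamts1, which read lower in the mutant, beside Adamts9 and Adamts12, which read higher. Each runs from 250 bases before the annotated start to 50 after it, 5′ to 3′ on the gene's strand. Capitals mark matches, searched on either strand, to 4 motifs. The TCF/LEF core was searched as CTTTG followed at each of the next 2 positions by either adenine or thymine. The GC box was searched as the letters GGGCGG. The TATA box, the usual core promoter element, was searched as TATAAA. The CCAAT box was searched under the letters of its own name. The windows are chr16:85803064-85803363 (minus strand) for Adamts1, chr6:92943485-92943784 (minus strand) for Adamts9 and chr15:11064523-11064822 (plus strand) for Adamts12.
Adamts1: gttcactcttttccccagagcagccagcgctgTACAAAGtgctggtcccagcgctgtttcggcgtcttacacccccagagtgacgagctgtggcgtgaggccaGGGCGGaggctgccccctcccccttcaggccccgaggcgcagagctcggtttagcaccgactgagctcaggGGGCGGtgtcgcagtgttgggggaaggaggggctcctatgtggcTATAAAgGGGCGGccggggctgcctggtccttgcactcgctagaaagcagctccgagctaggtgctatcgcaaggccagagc
Adamts9: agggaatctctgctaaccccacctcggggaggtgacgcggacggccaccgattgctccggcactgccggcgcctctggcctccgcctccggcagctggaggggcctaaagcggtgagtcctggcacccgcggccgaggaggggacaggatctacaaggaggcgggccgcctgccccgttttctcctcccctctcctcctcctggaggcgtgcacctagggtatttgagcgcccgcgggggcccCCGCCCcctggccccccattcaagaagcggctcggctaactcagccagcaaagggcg
Adamts12: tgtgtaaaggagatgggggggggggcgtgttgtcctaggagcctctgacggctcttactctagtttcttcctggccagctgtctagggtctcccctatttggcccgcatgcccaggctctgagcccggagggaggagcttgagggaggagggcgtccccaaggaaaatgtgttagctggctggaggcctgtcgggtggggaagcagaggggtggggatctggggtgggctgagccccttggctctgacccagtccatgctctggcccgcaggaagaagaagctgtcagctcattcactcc
The Adamts1 window held a TATA box at position -32 from the start, GC boxes at -147, -76 and -25, and 1 TCF/LEF match at -218. Adamts9 had 1 GC box, at -7, and Adamts12 had no match to any of these letters. None of the matches overlapped. Among 32851 promoters of the same length, 16.9% held a TCF/LEF match, 35.7% a GC box, 13.6% a TATA box and 37.4% a CCAAT box. GC content was 64.7% for Adamts1, 70.0% for Adamts9 and 62.0% for Adamts12, against a median of 52.7%. These matches are letters in a window and do not show a bound factor.

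Most members read higher in the mutant at their brightest probe set (7 of 9), and Adamts1 and Adamts16 read lower. Of the 19 probe sets, 14 passed the low-signal filter, at least 1 for each of the 9 genes. In 10 of these 14 both mutant arrays lay above both wild-type arrays, in 3 both lay below, and in 1 the groups overlapped. The same held for 26.1% (above) and 28.0% (below) of all tested probe sets. With the untested ones included, 12 of the 19 lay above and 3 below, where 22.9% and 24.0% of all probe sets on the array did. By the limma fit at an adjusted p under 0.05, 5 member probe sets of 4 genes passed as higher and 3 of 2 genes as lower, where 5.41% and 5.39% of all tested probe sets did so, 10.8% in both directions together. Because the members were picked on this contrast, nothing is read from these shares. In whole organs, fewer cells of a type and less RNA per cell cannot be told apart. Log2 differences are mutant minus wild-type on the log2(signal + 16) scale, which understates changes at low signal, folds are on that scale too, and ± after a log2 difference is the SE of the fit.

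**Figure D1:**
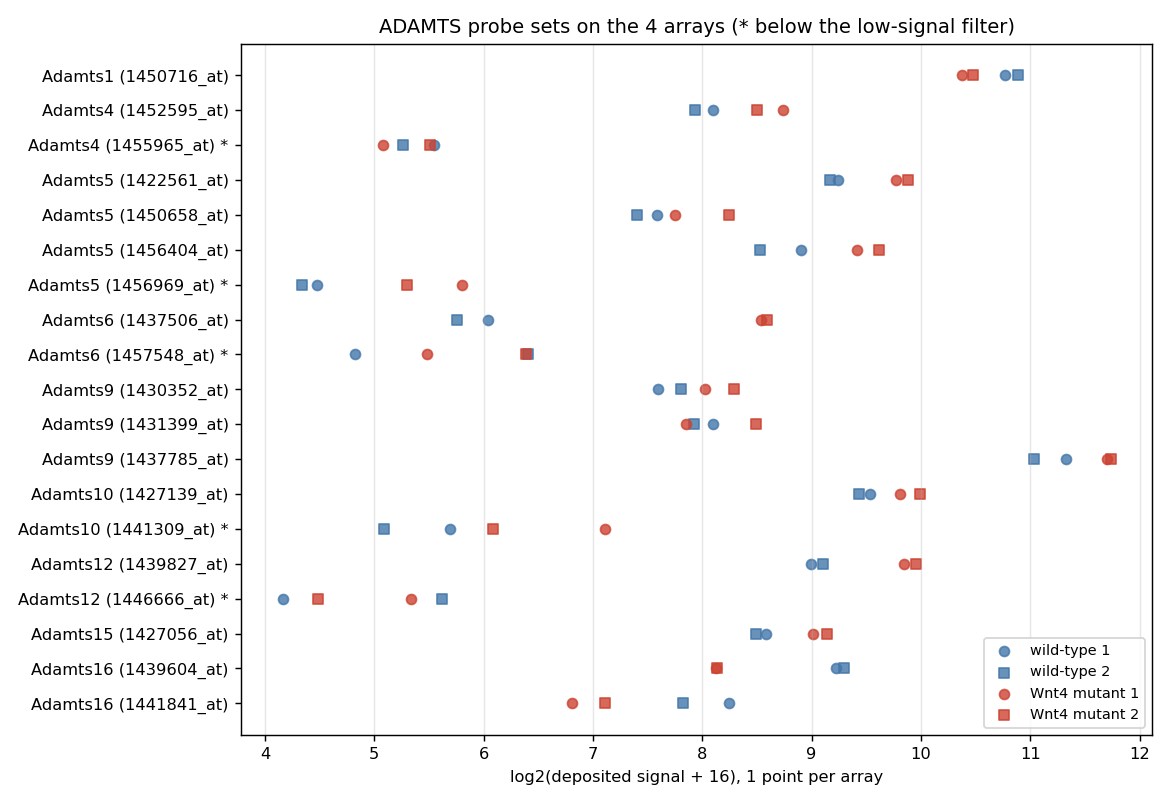
Log2(signal + 16) of the 19 ADAMTS probe sets on each of the 4 arrays (blue, wild-type; red, Wnt4 mutant; circle, replicate 1; square, replicate 2). The mutant points lie left of the wild-type points for Adamts1 and both Adamts16 probe sets and right of them in 12 probe sets; asterisks mark the 5 below the low-signal filter.

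The proteases that cleave hyalectans, the large aggregating proteoglycans, did not all go one way. Adamts1, a versican-cleaving protease, read 1733 and 1874 in wild-type and 1316 and 1410 in mutant kidneys. Both mutant arrays were below both wild-type arrays, with a log2 difference of -0.40 ± 0.10, that is 1.32-fold lower. Its call as lower was lost with arrays centred on their medians, without the filter and without the intensity trend. The call was also lost when wild-type replicate 2 or either mutant array was left out. With each array left out in turn the Adamts1 log2 difference ran from -0.46 to -0.34. Adamts5, an aggrecanase, went the other way: its brightest probe set read 589.9 and 560.3 in wild-type and 859 and 925 in mutant kidneys. That is a log2 difference of 0.62 ± 0.12 (1.54-fold higher). A further Adamts5 probe set read 462 and 353 against 665 and 771 (0.80 ± 0.17). The third read 176 and 153 against 199.6 and 288 (0.51 ± 0.25) and was not past the threshold, although its groups did not overlap either. All 3 tested probe sets of Adamts5 thus had the same direction.

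Adamts4, also an aggrecanase, read 259 and 229 in wild-type and 409.8 and 346 in mutant kidneys (log2 difference 0.60 ± 0.19, 1.51-fold higher). Adamts15, which cleaves versican, read 368 and 343 against 502 and 550.0 (0.54 ± 0.15, 1.46-fold higher). Neither was past the threshold, and in neither did the groups overlap. Adamts9, a widely expressed versican-cleaving protease, read 2556 and 2084 against 3316 and 3399.9 at its brightest probe set, a log2 difference of 0.54 ± 0.11 (1.45-fold higher). Its other probe sets were less clear. One read 178 and 207 against 244 and 297, without overlap, and the other 258 and 226 against 215 and 343, where mutant replicate 1 was the lowest of the 4 arrays and mutant replicate 2 the highest.

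The fibrillin-linked proteases Adamts6 and Adamts10, close relatives of each other, both read higher in the mutant. Adamts6 read 49.6 and 38.1 in wild-type and 354 and 370.2 in mutant kidneys. It was near the bottom of the scale on both wild-type arrays, below the lowest mean signal kept (94.2), so it passed the filter only through the mutant arrays. Its log2 difference of 2.67 ± 0.27 (6.35-fold higher) was the largest of the tested member probe sets. Its size depends on the added constant: it was 1.98 with a pseudocount of 64 and 3.03 with 1. Adamts10 read 727 and 675 against 881 and 999.8 (0.41 ± 0.12, 1.33-fold higher) and was not past the threshold.

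Adamts12, a protease of cartilage oligomeric matrix protein, read 493 and 533 in wild-type and 904 and 979 in mutant kidneys. Both mutant arrays were above both wild-type arrays, and the log2 difference was 0.86 ± 0.13 (1.81-fold higher). Adamts16, known from the developing kidney and gonad, had the lowest log2 difference of the set. Its brighter probe set read 579.8 and 614 against 262 and 266, a log2 difference of -1.13 ± 0.15 (2.19-fold lower). The dimmer one read 288 and 211 against 96.2 and 122 (-1.08 ± 0.27, 2.11-fold lower), so both probe sets gave nearly the same size.

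The 5 probe sets below the filter had signals from 1.90 to 121.9 and were not tested. Those of Adamts5 (6.26 and 4.24 against 39.6 and 23.2) and Adamts10 (35.6 and 18.1 against 121.9 and 51.9) were higher on both mutant arrays. Those of Adamts4, Adamts6 and Adamts12 overlapped between the groups. The dim Adamts6 probe set read 12.3 and 68.5 against 28.6 and 67.7, so the difference at the brighter one was not seen there.

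Leaving out 1 array in turn kept the sign of 13 of the 14 tested member probe sets wherever they passed the filter; the exception was the overlapping Adamts9 probe set, at -0.16 to 0.48. The 8 calls did depend on the arrays. That of Adamts6 was lost without mutant replicate 1 because its probe set then fell below the filter. Without mutant replicate 1, and likewise without mutant replicate 2, 3 of the 8 remained. Without wild-type replicate 1, and likewise without wild-type replicate 2, 7 remained, and without the intensity trend of the variance estimate 3 remained. The log2 difference of the brighter Adamts16 probe set ran from -1.17 to -1.09 and that of Adamts12 from 0.80 to 0.91 over these fits.

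Gene order in the RefSeq table places Adamts1 and Adamts5 next to each other among protein-coding genes, on chromosome 16. These neighbours went in opposite directions in the mutant (-0.40 and 0.62). Adamts15 lies beside Adamts8 on chromosome 9, and Adamts16 beside Irx1, a homeobox gene of the nephron, on chromosome 13. Of 14 tested neighbours that are not members, Irx1 and Cenpk (beside Adamts6) were lower, and Prickle2 (beside Adamts9) and Zfp354c (beside Adamts2) higher. These 4 were chosen after their values were seen. Over all genes tested with 1 probe set each, 5.82% passed as lower and 6.70% as higher. Irx1 fell from 639 and 814 to 69.4 and 117 (6.91-fold lower, limma adjusted p = 0.000517), and it passed in all 14 alternatives tried. Cenpk, a kinetochore gene, fell from 1461 and 1308 to 883 and 831 (adjusted p = 0.00759). Prickle2 (adjusted p = 0.0467) lost its call under quantile normalization (0.0556) and with arrays centred on their medians (0.112). The same happened without the filter (0.0692) and with the replicate number as a block (0.0560). Its call was also lost when mutant replicate 1, mutant replicate 2 or wild-type replicate 2 was left out. With each array left out in turn the Prickle2 log2 difference ran from 0.39 to 0.52. Zfp354c (adjusted p = 0.00838) lost its call when mutant replicate 2 was left out (0.0536). Without the intensity trend Irx1 alone of these 4 passed (0.0242).

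The other genes of the family and its pathway were not chosen by the rule for members and were tested, 1 probe set per gene. Their lists were drawn up with earlier results of these data known, so the counts are no independent test. Of 83 listed genes in 9 lists, 78 were on the array and 71 were tested. In the limma fit 20 were higher in the mutant, 1 was lower and 50 did not pass. Over all 13432 genes tested this way, 6.70% passed as higher and 5.82% as lower, and the median log2 difference was 0.00. The count of 20 fell to 10 without mutant replicate 2. Without the intensity trend it fell to 4, which were Adamtsl1, Mfap4, Mmp11 and Mmp16. Each of the other calls named in these lists was also lost without the trend, with the exception of the dimmer Hapln1 probe set. Other tested probe sets of these 21 genes numbered 24, of which 11 passed in their gene's direction and 13 did not pass.

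Among the remaining ADAMTS proteases 2 of 5 tested were higher and 0 lower (0 lower also at an unadjusted p under 0.05), with a median log2 difference of 0.62, or 0.36 without wild-type replicate 2. Adamts18, the closest relative of Adamts16, rose from 90.1 and 23.6 to 229.6 and 247 (1.97 ± 0.45, adjusted p = 0.0302), the direction opposite to that of Adamts16. The dim wild-type signals make its size depend on the pseudocount (1.38 with 64) and on the wild-type array, at 2.68 without wild-type replicate 1 and 1.26 without wild-type replicate 2. Both wild-type values lie below the lowest mean signal kept (94.2), so this probe set passed the filter only through the mutant arrays. Without either mutant array it fell below the filter. Its adjusted p ran up to 0.118 over the alternatives. Adamts20, the closest relative of Adamts9, rose from 204 and 277 to 469.7 and 511 (1.00 ± 0.20, adjusted p = 0.0163), and lost its call when mutant replicate 2 was left out (adjusted p = 0.0777, the highest over its alternatives). Adamts7, which is paired with Adamts12 by structure, read 273 and 183 against 395 and 314 (0.62 ± 0.24, adjusted p = 0.150). Adamts3, a procollagen protease, and Adamts8 did not pass (adjusted p = 0.240 and 0.652). Adamts13, Adamts14 and Adamts17 were not analysed here, and Adamts19 was below the filter.

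ADAMTS-like proteins resemble the proteases but lack the catalytic domain. Of 5 tested, Adamtsl1 was higher and 0 were lower (1 lower at an unadjusted p under 0.05), with a median of 0.06, which ran from -0.04 without wild-type replicate 1 to 0.16 without wild-type replicate 2. The dimmer tested Adamtsl1 probe set read 12.4 and 90.2 against 327.7 and 381.4 and also passed as higher. Its wild-type values lie below the lowest mean signal kept (94.2), so it passed the filter only through the mutant arrays. At its brightest probe set Adamtsl1 rose from 164 and 163 to 329 and 300.1 (0.88 ± 0.20, adjusted p = 0.0313). Its call was lost when mutant replicate 1 (adjusted p = 0.162, the highest over its alternatives) or mutant replicate 2 (0.0949) was left out. Thsd4, which binds fibrillin microfibrils, read 619 and 665 against 861 and 794 (0.36 ± 0.12, adjusted p = 0.110).

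**Figure D2:**
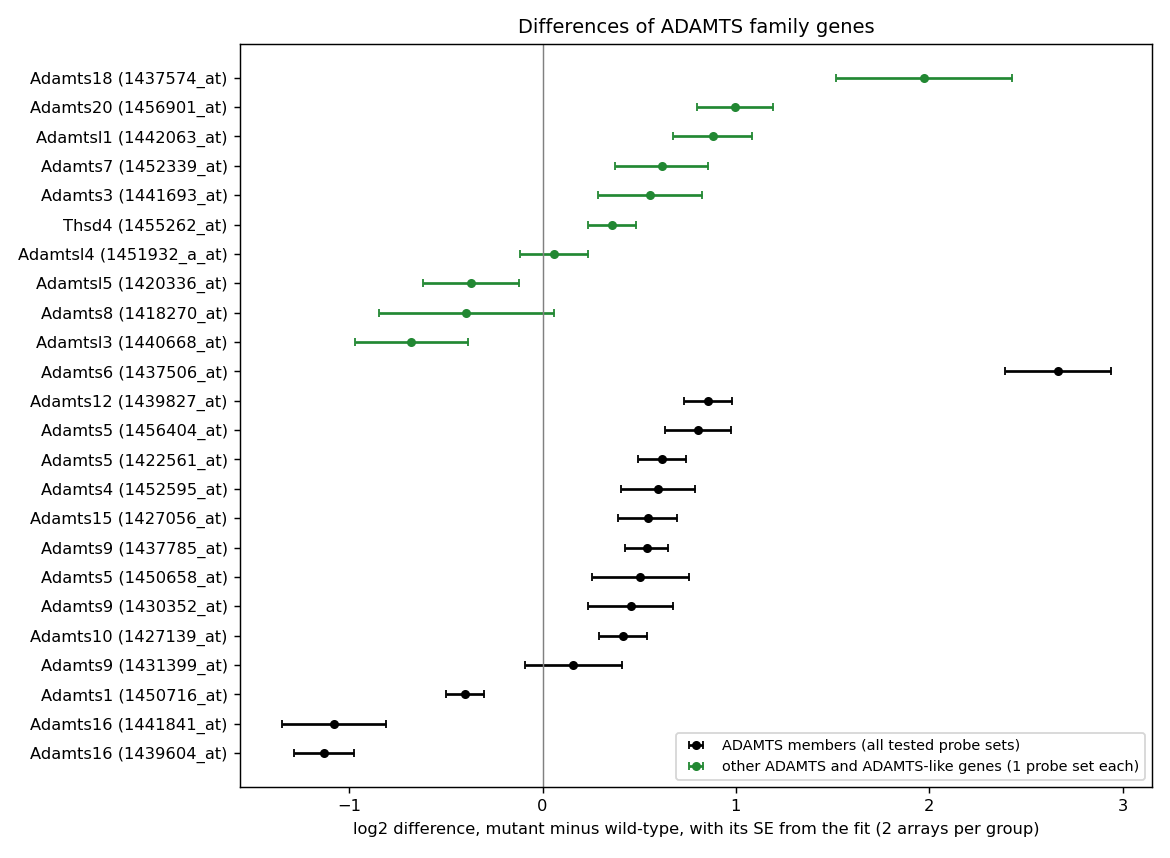
Log2 difference (mutant minus wild-type) with its SE for the 14 tested member probe sets (black) and for 10 other ADAMTS and ADAMTS-like genes (green, 1 probe set each); 2 arrays per group. Adamts6 is farthest right at 2.67 and Adamts16 farthest left at -1.13 among the members, and Adamts18 stands at 1.97 among the others.

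Inhibitors and clearance receptors went both ways: of 7 tested 1 was higher, 1 lower and 5 did not pass. The median was 0.10, and it ran from 0.03 without mutant replicate 1 to 0.20 without mutant replicate 2. Timp3, a matrix-bound inhibitor of several ADAMTS proteases, fell from 1336 and 1172 to 889 and 869 (-0.50 ± 0.11, 1.42-fold lower, adjusted p = 0.0282). Its 3 further tested probe sets did not pass. The call was lost without wild-type replicate 1 (adjusted p = 0.0533), mutant replicate 1 (0.108) or mutant replicate 2 (0.134, the highest over its alternatives), and with arrays centred on their medians (0.0909). Lrp1, an endocytic receptor that clears Adamts4 and Adamts5, rose from 958 and 907 to 1327 and 1597 (0.64 ± 0.12, adjusted p = 0.0144). With mutant replicate 2 left out the adjusted p was 0.114, the highest over its alternatives. Sdc4, a cell-surface proteoglycan, did not pass at its brighter probe set (adjusted p = 0.781). A dimmer one, named after its value was seen, fell from 329 and 392 to 172 and 206 (adjusted p = 0.0328). The adjusted p of that one was 0.0965 with wild-type replicate 2 left out, 0.134 with mutant replicate 1 left out and 0.0538 with mutant replicate 2 left out.

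Of 6 genes for proprotein convertases and for the sugar chains of thrombospondin repeats, Pcsk5 was higher and 0 were lower (2 lower at an unadjusted p under 0.05). Pcsk5 rose from 482 and 469 to 719 and 914 (0.75 ± 0.15, adjusted p = 0.0180), with 2 of 3 further probe sets in the same direction and 1 not past the threshold. With mutant replicate 2 left out the adjusted p rose to 0.132, the highest over its alternatives. Furin read 868 and 875 against 766 and 652 (-0.30 ± 0.13, adjusted p = 0.191). The list median was -0.02, and it ran from -0.19 without wild-type replicate 2 to 0.08 without wild-type replicate 1.

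Some genes rose in the lists of hyalectans with the hyaluronan matrix (the hyalectan list below) and of microfibril partners. These lists hold other matrix genes as well as substrates. In the hyalectan list 2 of 8 were higher and 0 lower (0 lower also at an unadjusted p under 0.05), with a median of 0.25. The median was 0.07 without wild-type replicate 1. Without mutant replicate 1 it was 0.00, over 9 genes, because the filter was applied anew. Vcan, which encodes versican, rose at its brightest probe set from 3359 and 3568 to 4617 and 5104 (0.49 ± 0.09, 1.40-fold, adjusted p = 0.0117). The 2 further tested Vcan probe sets did not pass and overlapped between the groups, with log2 differences of -0.06 and -0.10. Has2, a hyaluronan synthase, rose from 827 and 883 to 1157 and 1339.7 (0.53 ± 0.12, adjusted p = 0.0260). Neither passed without mutant replicate 2 (adjusted p = 0.108 for Vcan and 0.191 for Has2), and their highest adjusted p over the alternatives were 0.132 and 0.191. Acan, which encodes aggrecan, did not pass (adjusted p = 0.715). One probe set of Hapln1, a link protein, named after its value was seen, rose from 88.4 and 121 to 259 and 253 (adjusted p = 0.0243) while the brightest did not pass (0.0632). With mutant replicate 1 or 2 left out its adjusted p was 0.0926 or 0.0822.

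In the microfibril list 5 of 8 were higher and 0 lower (0 lower also at an unadjusted p under 0.05), with a median of 0.69. Fbn2, which encodes fibrillin-2, rose from 2705 and 2503 to 4172 and 5341 (0.86 ± 0.12, 1.81-fold, adjusted p = 0.00397), with its other probe set in the same direction. Ltbp3, a latent TGF-beta binding protein, rose by 1.86-fold (adjusted p = 0.00375) and Mfap2, a microfibril glycoprotein, by 1.50-fold (adjusted p = 0.00615). A dimmer Mfap2 probe set went the other way and did not pass, at 529.7 and 691 against 504 and 519.8 (log2 difference -0.24). Mfap4, another microfibril-associated gene, rose from 341 and 156 to 2864 and 1667 (3.15 ± 0.34, adjusted p = 0.00112). Mfap5, named after its value was seen, rose by 1.73-fold (adjusted p = 0.0408) and lost its call when wild-type replicate 2 (0.0632) or mutant replicate 2 (0.196) was left out. Fbn1 was not analysed here.

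Of 6 fibrillar procollagen genes 2 were higher and 0 lower (0 lower also at an unadjusted p under 0.05), with a median of 0.20, which was 0.42 without wild-type replicate 1 and 0.13 without wild-type replicate 2. Col5a1 rose from 2125 and 2062.5 to 3177 and 3496 (adjusted p = 0.00319), and Col5a2 from 3073 and 2505 to 3666 and 4365 (adjusted p = 0.0334). The call of Col5a2 was lost when mutant replicate 2 was left out (adjusted p = 0.182). For Col3a1 the brightest probe set did not pass (adjusted p = 0.600), while a dimmer one, named after its value was seen, rose from 2715 and 3053 to 5055 and 5394 (adjusted p = 0.00104).

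Of 9 further substrates and ligands 0 passed at their brightest probe set in the limma fit; at an unadjusted p under 0.05 there was 1, and 1 was called higher without wild-type replicate 2. Thbs1, a thrombospondin cut by Adamts1, read 488 and 547 against 605 and 662 (0.29 ± 0.14, adjusted p = 0.246). Vegfa, a growth factor bound by Adamts1, did not pass at its brightest probe set (adjusted p = 0.860). A second one, named after its value was seen, fell from 552 and 538 to 213 and 313 (-1.03, adjusted p = 0.0164). Its call was lost when mutant replicate 1 was left out (0.0610).

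Of 17 ADAM and matrix metalloproteinases tested, 6 were higher and 0 lower (1 lower at an unadjusted p under 0.05), with a median of 0.29, which was 0.47 without wild-type replicate 1, 0.11 without wild-type replicate 2 and 0.19 without mutant replicate 2. Mmp2, gelatinase A, rose from 3119 and 2809.8 to 5127 and 4931 (0.76 ± 0.09, 1.69-fold, adjusted p = 0.00150). Mmp16, a membrane-bound protease, rose by 2.29-fold (adjusted p = 0.00432) and Mmp11, a secreted one, by 2.01-fold (adjusted p = 0.00419). Adam19, a membrane-bound sheddase, rose by 1.63-fold (adjusted p = 0.00761) and did not pass without mutant replicate 2 (0.0655). Adam22 and Mmp14, named after their values were seen, rose by 1.81-fold and 1.34-fold (adjusted p = 0.0156 and 0.0251). Neither passed without mutant replicate 1 (0.113 and 0.124), and Mmp14 did not pass without mutant replicate 2 (0.128) or with arrays centred on their medians (0.0995). With 1 array left out the count ran from 4 without mutant replicate 1 to 7 without wild-type replicate 2, and without the intensity trend it was 2.

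**Figure D3:**
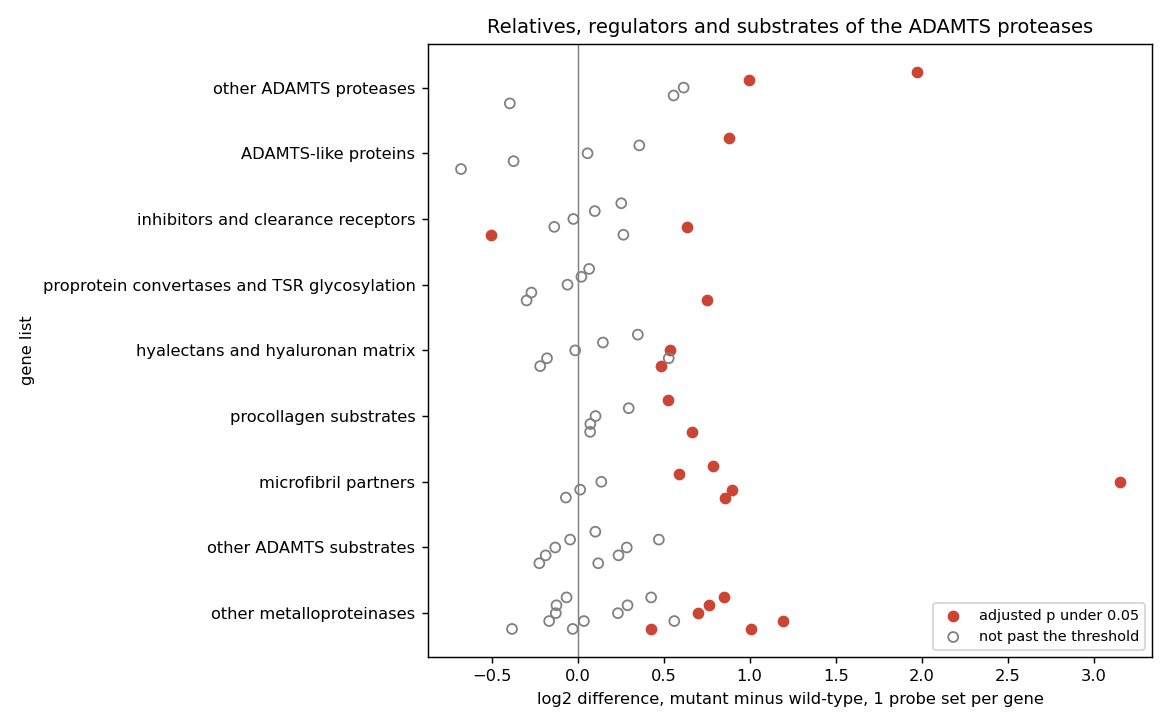
Log2 difference (mutant minus wild-type) of the 71 tested genes in 9 lists, 1 probe set per gene; filled points passed an adjusted p under 0.05 in the limma fit. The 20 filled points right of 0 include Mfap4 at 3.15, and the 1 left of 0 is Timp3 at -0.50.

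Markers of several cell types moved with the genotype on the same arrays. They were tested at 1 probe set per gene, where 6.70% of all genes tested passed as higher and 5.82% as lower. In the stroma list 6 of 8 tested genes were higher and 0 lower, and the summed signal of the list was 25010 and 25950 in wild-type and 42645 and 42858 in mutant kidneys. In the skeletal muscle list 5 of 7 tested were higher and 0 lower; the sum was 1821 and 1192 against 7223 and 6816, and Myf5, a defining marker, was below the filter. The nephron epithelium list was lower at 8 of 8 tested genes, with sums of 13436 and 13530 against 3136 and 3134. That list holds Wnt4 itself, which the genotype fixes; without it 7 of 7 were lower, with sums of 11551 and 11760 against 2729.9 and 2862. Podocyte genes were lower at 4 of 5 (7347 and 6962 against 3477 and 3229) and endothelial genes at 4 of 8 (10860 and 10468 against 7630 and 7803). Erythroid genes were higher at 2 of 4, the globin genes Hba-x and Hbb-y, with list sums of 10103 and 9877 against 22186 and 23144. Hbb-y alone read 7908 and 7891 against 16223 and 17162, while Alas2 and Slc4a1 did not pass. In the macrophage list 0 of 5 passed in the limma fit (0 at an unadjusted p under 0.05), with sums of 2829 and 2575 against 2933 and 3085. In the smooth muscle list 2 of 4 were lower and 1 higher, with sums of 10219 and 10684 against 10217 and 9168, and in the cartilage list 1 of 4 was higher. Of 6 nephron progenitor genes 1 was lower (Cited1, log2 difference -0.95) and 2 higher (Osr1, 0.82, and Crym, 0.69), while Six2 did not pass. Of 7 ureteric bud genes likewise 1 was lower and 2 higher. The part of these cell types in the ADAMTS values was not tested.

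**Figure D4:**
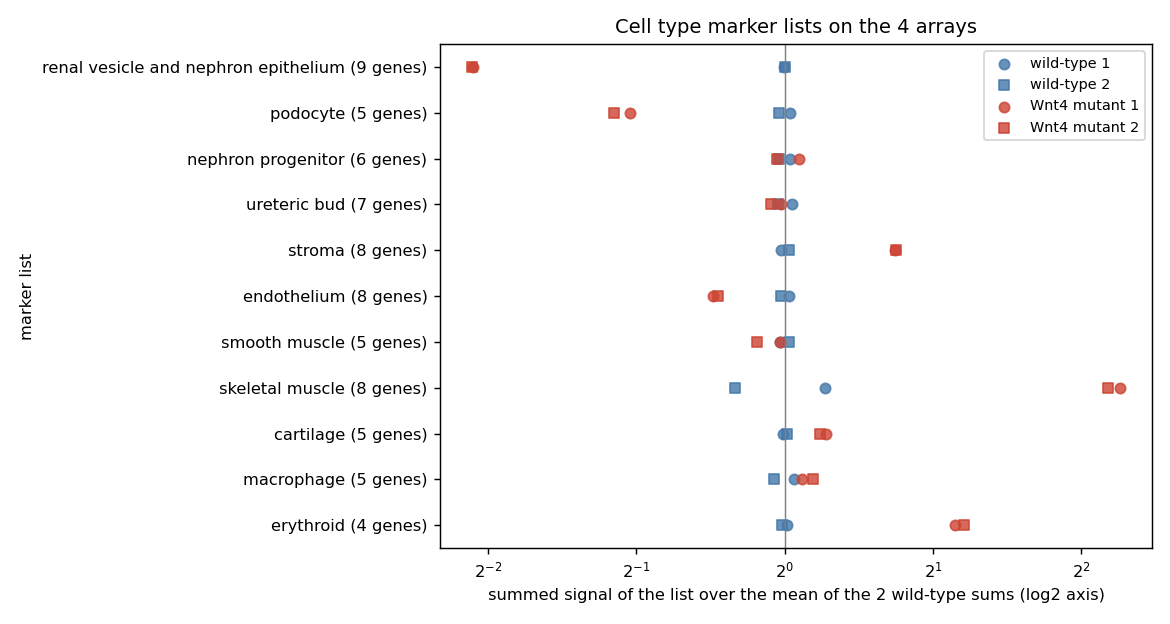
Summed signal of each cell type marker list on each array, divided by the mean of the 2 wild-type sums (log2 axis; blue, wild-type; red, Wnt4 mutant; circle, replicate 1; square, replicate 2). Both mutant sums lie below both wild-type sums for nephron epithelium, podocytes, endothelium and, by a narrow margin, smooth muscle, and above them for stroma, skeletal muscle, cartilage, macrophages and erythroid cells.

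The genes nearest in profile were taken as those with the smallest Euclidean distance of centred log2 values over the 4 arrays, 1 probe set per gene. For Adamts16 these were Prss23 (distance 0.0422), Slc22a2 (0.0563) and Sema3g (0.0744), with log2 differences of -1.16, -1.10 and -1.10. For Adamts6 they were Actc1 (0.140), a cardiac and embryonic muscle actin gene, Tacr3 (0.240), a neurokinin receptor gene, and Ano4 (0.316), with log2 differences of 2.63, 2.65 and 2.96. With 4 arrays such likeness rests mostly on the difference between genotypes.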

How the data were processed

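RNA amplified in 1 round was hybridised to Affymetrix Mouse430_2 arrays, 1 pool of kidneys each. The authors' deposited values were 1 linear signal intensity per probe set and array. GCOS is the only software in the submitters' processing notes; for its version, the summary method and the scaling target, nothing is given in the sources used here. Median signal per array was 137.5 to 159.3. The mean signal with 2% of values trimmed at each end was 500 on every array, so the deposited values share a common scale. With so few arrays precision is limited, and the smallest two-sided p of an exact test of 2 against 2 is 0.33.

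Signals were analysed as log2(signal + 16). The 64 control probe sets and the lowest 40% of the others by mean were left out. Each probe set was fitted on genotype in limma 3.58.1 under R 4.3.3 (eBayes with an intensity trend, two-sided, Benjamini-Hochberg over 27022 probe sets, threshold 0.05). Of 45101 probe sets, 34958 were paired with 1 gene, 932 with several and 9211 were not listed. A gene outside the family was represented by its brightest tested probe set. The members and lists were chosen with earlier results of these data known. Genes named are all members, the called genes of each list (up to 4), fixed partners, and the 3 nearest profiles of the lowest and highest member; others are marked as named after their values were seen. The alternatives tried were quantile normalization, median centring, pseudocounts of 1 and 64, leaving out the lowest 60% or nothing by mean signal, a robust or trend-free eBayes, leaving out probe sets ending in _x_at or _s_at, a replicate block, and leaving out each array.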

Additional observations from a re-analysis of the deposited data

How the results depend on the processing

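Over 14 alternatives, 13 of 14 member probe sets and all 31 other probe sets followed kept their sign wherever they passed the filter; 25 of the 29 called ones among the latter lost the call under at least 1 alternative. The latter include 8 chosen after seeing the data, at Irx1, Cenpk, Prickle2, Zfp354c, Sdc4, Hapln1, Col3a1 and Vegfa. They also include Mfap5, Adam22 and Mmp14, called genes of the lists that were likewise named after their values were seen. Without the intensity trend 858 probe sets passed, against 2920 with it, with 1 member probe set lower and 2 higher, and 0 related and partner genes lower and 4 higher (limma; 2 lower at an unadjusted p under 0.05). Related and partner genes called lower by limma numbered 0 with arrays centred on their medians (2 at an unadjusted p under 0.05). Member probe sets called lower numbered 1 without the filter. When 1 array was left out, the calls ran from 1572 to 4008 over all probe sets, from 1 to 2 lower and 2 to 6 higher among member probe sets, and from 0 to 1 lower and 10 to 22 higher among related and partner genes (limma; 1 to 4 lower at an unadjusted p under 0.05). Without a mutant array, the lone one is assumed to vary like the wild-type arrays. With the replicate number as a block the counts were 2913 over all probe sets, 3 lower and 5 higher among members, and 1 lower and 20 higher among related genes; among genes named, that block lost the call of Prickle2 (adjusted p = 0.0560). Deviations of same-numbered arrays correlated at -0.0171 over probe sets, so the numbers were not taken to pair the arrays. The lowest mean signal kept was 94.2, and probe sets near it are limited by their signal over background.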
